A study of Homo sapiens with 7 samples.

Results

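The genes described here carry out or control antigen presentation by class I molecules of the major histocompatibility complex (MHC). They are 9 named genes of the 26175 in the RNA-seq table, chosen by function and not by a cutoff on a measured value. Earlier results of these data were known when they were chosen. HLA-B, HLA-C, HLA-E and HLA-F encode heavy chains, B2M the light chain, TAP1 and TAP2 the peptide transporter, TAPBP the loading factor tapasin, and NLRC5 the transactivator of the class I promoters. Transcription start sites (TSSs) were collected from each annotated gene locus widened by 1000 nts on both sides. Antisense calls were joined to a gene TSS by the identifier they share. The widened loci held 9 of the 10391 gene TSSs, of which 7 belong to the 9 genes, 1 to PSMB9 and 1 to no annotated start within 1000 nts.

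Class I molecules show peptides from proteins made inside the cell to cytotoxic T cells. The proteasome cuts the proteins, the TAP transporter moves the peptides into the endoplasmic reticulum, and tapasin holds the empty class I molecule beside the transporter until a peptide is bound. Most nucleated cells express these genes, and interferon raises them. Their promoters are known to carry an interferon-stimulated response element (ISRE) and a module that binds the RFX complex, CREB or ATF factors and NF-Y, to which NLRC5 is recruited. Loss of class I expression is one way in which tumor cells escape T cells.

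The data came from T-47D cells, a human luminal breast cancer line. The study's methods name them as T47D/A1-2, a derivative that overexpresses rat glucocorticoid receptor and holds an integrated MMTV luciferase reporter, so all libraries share both insertions. The cells were grown in 10% serum and then kept in 5% charcoal-stripped serum for at least 24 hours, and no other condition was used here. Start-seq, which sequences short capped nascent RNA and places each start at a single nucleotide, supplied the TSS calls (replicate 1 of 2). Poly-A RNA-seq of 3 replicates, merged by the authors into 1 value per gene, supplied transcript levels as FPKM, a count of fragments scaled by transcript length and library size.

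No value below has a replicate error. The 3 RNA-seq replicates were merged before deposit, each call has a score of 0 with no read count, and the depth behind each value is unknown. All comparisons are therefore descriptions without a test, and differences between neighbouring genes in an order cannot be set against a spread. Of 12 luminal epithelial markers, all had an FPKM of at least 1, with a median of 244, led by KRT8 at 1142, KRT19 at 936 and KRT18 at 555. The 18 leukocyte markers had a median of 0.0248. CD68 was at 0.614 and CD4 at 0.0760, and CD3D, CD3E, NKG7 and TYROBP were listed at 0. Of 10 fibroblast and endothelial markers, 1 reached an FPKM of 1, with a median of 0.0190. The highest were COL1A1 at 8.82, VWF at 0.108 and LUM at 0.103, and CDH5 and KDR were listed at 0. The transcript levels below were thus measured in cells with luminal markers and with leukocyte markers near 0.

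The promoter sequences of the 3 heavy chain genes with a called start and of B2M are shown first, because their shared letters and the spacing between them are described below. Each runs 5′ to 3′ on the strand of its gene, from 200 nts before the called gene TSS to 30 nts from it, in GRCh37, the build whose chromosomes are those of hg19. The capitals mark matches to the motifs searched, among them TGACG (the core of the X2 or CRE element), CCAAT or its reverse complement ATTGG (the NF-Y site), GAAANNGAA (ISRE), GGGATTCC (kappaB site) and TATAA. The letters are those of the reference genome and not of the alleles of T-47D cells, which were not read.

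HLA-B (chr6:31324927-31325156, minus strand): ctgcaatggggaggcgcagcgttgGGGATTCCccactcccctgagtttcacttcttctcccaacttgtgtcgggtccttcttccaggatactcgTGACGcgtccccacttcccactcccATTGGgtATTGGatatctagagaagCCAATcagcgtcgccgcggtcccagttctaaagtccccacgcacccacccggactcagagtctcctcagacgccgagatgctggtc
HLA-C (chr6:31239858-31240087, minus strand): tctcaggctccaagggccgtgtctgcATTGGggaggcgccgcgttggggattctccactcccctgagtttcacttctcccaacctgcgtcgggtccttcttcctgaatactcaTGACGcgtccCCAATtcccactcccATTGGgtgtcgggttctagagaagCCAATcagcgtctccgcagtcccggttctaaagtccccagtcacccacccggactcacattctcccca
HLA-E (chr6:30457086-30457315, plus strand): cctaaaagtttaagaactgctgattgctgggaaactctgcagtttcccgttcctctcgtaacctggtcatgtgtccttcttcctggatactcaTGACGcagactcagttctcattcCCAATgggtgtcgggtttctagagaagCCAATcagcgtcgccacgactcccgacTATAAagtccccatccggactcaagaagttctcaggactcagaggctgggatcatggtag
B2M (chr15:45003515-45003744, plus strand): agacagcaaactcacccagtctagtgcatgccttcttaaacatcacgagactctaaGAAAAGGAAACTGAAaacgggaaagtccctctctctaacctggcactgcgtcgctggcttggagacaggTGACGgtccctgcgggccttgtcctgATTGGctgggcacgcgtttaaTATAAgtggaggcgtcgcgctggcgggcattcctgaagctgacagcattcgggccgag

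In all 4 sequences a TGACG on the gene strand was followed by an NF-Y site. The corresponding windows of TAP2 and TAPBP are shown because each holds an ISRE match within 50 nts of the called start, and here the capitals also mark the GC box core GGGCGG, read on the other strand as CCGCCC.

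TAP2 (chr6:32806495-32806724, minus strand): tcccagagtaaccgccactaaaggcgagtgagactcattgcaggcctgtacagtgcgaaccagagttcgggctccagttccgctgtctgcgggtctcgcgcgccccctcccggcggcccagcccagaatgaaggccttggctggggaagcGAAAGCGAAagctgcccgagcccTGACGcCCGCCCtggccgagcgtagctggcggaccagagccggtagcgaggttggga
TAPBP (chr6:33281831-33282060, minus strand): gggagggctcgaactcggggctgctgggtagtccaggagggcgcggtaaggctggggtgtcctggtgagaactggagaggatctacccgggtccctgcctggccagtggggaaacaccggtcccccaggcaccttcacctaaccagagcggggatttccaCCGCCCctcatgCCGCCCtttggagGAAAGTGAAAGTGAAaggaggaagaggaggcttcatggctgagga

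The window before the TAP1 gene TSS is not shown, since that TSS was called inside the first exon. The stretch between TAP1 and PSMB9 is given with those 2 genes below.

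Transcript levels spanned a range of 376-fold between B2M and NLRC5. The median of the 9 genes was 45.8 FPKM, against 0.528 over all 26175 genes and 16.7 over the 9219 genes with a called gene TSS. At least 1 FPKM was measured for 8 of the 9 genes, compared with 46.9% of all genes. The exception was NLRC5. Above the median of genes with a gene TSS stood 7 of the 9, with HLA-F and NLRC5 under it.

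**Figure D1:**
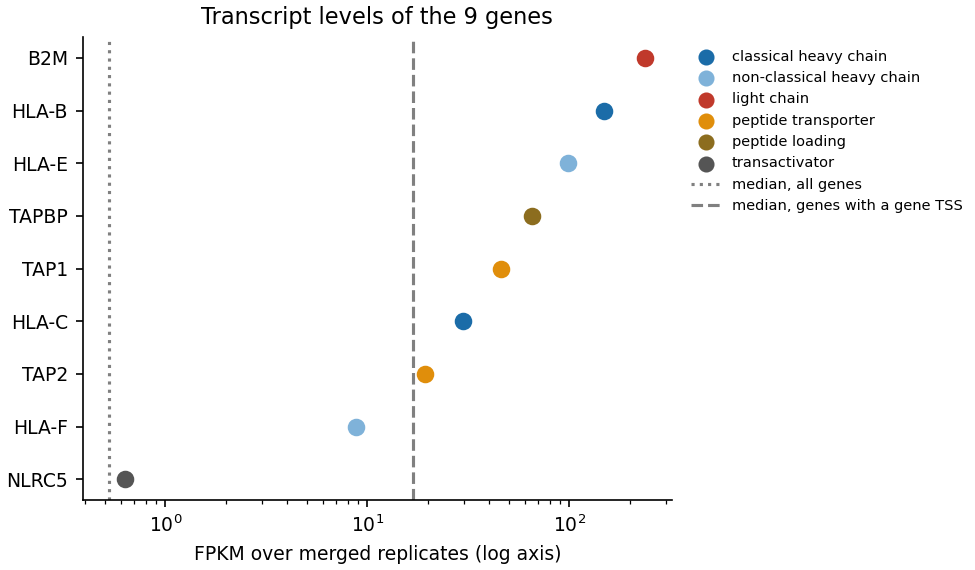
Transcript level of each of the 9 genes, as FPKM over the merged replicates on a log axis, colored by role. The dotted line is the median of all genes (0.528) and the dashed line the median of genes with a called gene TSS (16.7). Points have no error bars because the replicates were merged, and NLRC5 and HLA-F are the 2 genes left of the dashed line.

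The light chain gene B2M (ENSG00000166710, chr15:45003556-45011049, plus strand) had the highest level, 238 FPKM, which placed it at rank 226 of all genes. Its product pairs with every class I heavy chain and with several class I-like proteins. The FPKM of HLA-B, HLA-C, HLA-E and HLA-F summed to 285, above that of B2M alone.

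The heavy chain genes covered a wide range. HLA-B (ENSG00000234745, chr6:31321649-31334844, minus strand), a classical presenting molecule, reached 149 FPKM at rank 500. HLA-C (ENSG00000204525, chr6:31236526-31239907, minus strand), the other classical gene among the 9 and a main ligand of killer cell receptors, was at 29.7 FPKM and rank 3650. The level of HLA-B was 5.00 times that of HLA-C. HLA-E (ENSG00000204592, chr6:30457286-30461971, plus strand), a non-classical molecule that presents leader peptides of other class I chains to NKG2 receptors, was at 98.1 FPKM and rank 946. It lay between the classical genes, 3.30 times above HLA-C. HLA-F (ENSG00000204642, chr6:29690552-29706305, plus strand), also non-classical, was at 8.76 FPKM and rank 7748, so that HLA-B exceeded it 17.0 times.

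The transport and loading genes formed a narrower range. TAPBP (ENSG00000231925, chr6:33267471-33282061, minus strand) was at 65.0 FPKM and rank 1622. TAP1 (ENSG00000168394, chr6:32812986-32821593, minus strand) was at 45.8 FPKM and rank 2406, and TAP2 (ENSG00000204267, chr6:32789610-32806516, minus strand) at 19.3 FPKM and rank 5102. The 2 subunits of the transporter, which act as a heterodimer, thus differed 2.38-fold in transcript level.

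NLRC5 (ENSG00000140853, chr16:57023397-57117443, plus strand), whose product has no DNA-binding domain of its own and acts through RFX and its partners, was at 0.632 FPKM and rank 12856. This is close to the median of all genes. From B2M down to TAP2 each gene exceeded the next by 1.42 to 1.60 times. The steps after TAP2 were wider, 2.20 to HLA-F and 13.9 from HLA-F to NLRC5.

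A property of the table bears on the 7 chromosome 6 genes. Their locus in the RNA-seq table is on an alternative haplotype sequence of chromosome 6 and not on the main chromosome, as for 228 genes of the table. B2M and NLRC5 are listed on main chromosomes. Whether each FPKM covers 1 haplotype copy or several was not tested, and levels of these genes relative to genes on main chromosomes carry this limit. None of the 10391 gene TSSs lies on a haplotype sequence. For this reason the gene loci used for the calls are those of the GENCODE annotation on the main chromosomes.

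Sequence shared with relatives was measured on the canonical transcripts. Of the stretches of 50 nts in the transcript, 2.56% were also found in a transcript of another gene for HLA-B, 6.77% for HLA-C, 6.16% for HLA-E and 1.89% for HLA-F. The leading partners were other class I genes and pseudogenes. With stretches of 100 nts the largest of the 4 shares was 0.613%. TAP2 shared 35.3% of its stretches of 50 nts, with an overlapping readthrough gene, so its FPKM is the least certain by this measure. TAPBP shared 7.09% and TAP1 1.18%, and B2M and NLRC5 shared none. TAP1 has the same table locus as PSMB8, and HLA-F the same as its antisense gene HLA-F-AS1, at 0.450 FPKM.

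A gene TSS was called for 7 of the 9 genes. Counting the genes at 1 FPKM or more, 7 of 8 had a call, and among the genes at that level that matched the annotation by name the share was 76.9% (8662 of 11264). The genes without a call were HLA-F and NLRC5, the same 2 that have the lowest FPKM. The nearest gene TSS to the annotated start of HLA-F was 90947 nts away, at GABBR1, and that of NLRC5 was 57415 nts away, at HERPUD1. At both annotated starts the first 30 nts occur once in the genome sequences searched, which hold no alternative haplotypes. The first 20, 30 and 50 nts from every called start of the 9 genes and PSMB9, antisense starts included, also occurred once.

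Called starts mostly coincided with the annotation. The gene TSS fell within 20 nts of an annotated start for 6 of 7 genes, and over all gene TSSs the median distance was 10 nts (quartiles 1 and 50). HLA-B (31324956), HLA-E (30457286) and B2M (45003715) were called at the exact first base of their canonical transcripts. TAPBP (33281860) was called 5 nts upstream, TAP2 (32806524) 8 nts upstream and HLA-C (31239887) 18 nts upstream. When the HLA-B and HLA-C sequences above were aligned, the HLA-B start matched a base 18 nts downstream of the HLA-C call. That base is the start of the canonical HLA-C transcript. TAP1 (32821323) was the exception, called 158 nts downstream of its canonical start and inside its first exon of 666 nts.

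Starts listed as antisense, upstream or downstream, were present at 3 of the 7 gene TSSs. An upstream antisense TSS (uaTSS) was present at HLA-B, HLA-E and B2M, which is 42.9% (exact Clopper-Pearson 95% interval 9.90% to 81.6%) against 53.1% of all gene TSSs. A downstream antisense TSS (daTSS), which points back toward the gene start, was present at HLA-B and HLA-E, 28.6% (3.67% to 71.0%) against 28.4% of all. The intervals cover only the counting of calls and are wide enough to include the shares of all gene TSSs. HLA-C, TAP1, TAP2 and TAPBP had neither call. Upstream of TAP1, a start on the other strand is listed as the PSMB9 gene TSS, 268 nts away, and is not counted here. The 3 genes with a uaTSS or daTSS were also the 3 of highest FPKM. TAPBP, TAP1, HLA-C and TAP2 also exceeded the median of genes with a gene TSS and had neither.

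The antisense starts lay near the median distances of the library. The uaTSS of HLA-B (31325147, plus strand) lay 191 nts upstream of the gene TSS and that of HLA-E (30457098, minus strand) 188 nts upstream. That of B2M (45003567, minus strand) lay 148 nts upstream. The median of all 5519 uaTSSs was 200 nts (quartiles 127 and 330). The daTSS of HLA-E (30457728, minus strand) lay 442 nts downstream, in exon 2. The daTSS of HLA-B (31324315, plus strand) lay 641 nts downstream, in intron 2, and the median of all 2956 daTSSs was 507 nts (quartiles 313 and 804). Both HLA daTSSs thus lie beyond the first exon, which is 94 nts long in HLA-B and 87 nts in HLA-E.

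**Figure D2:**
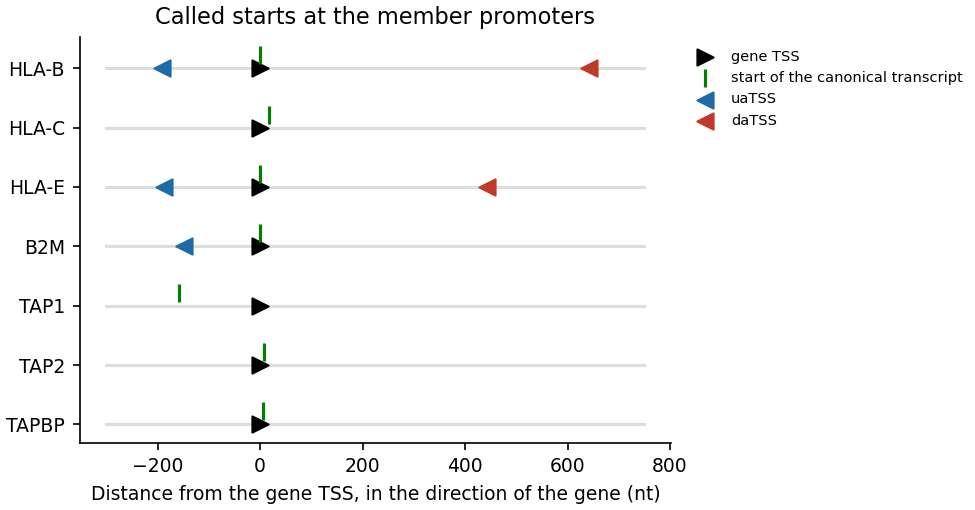
Called starts at the 7 genes with a gene TSS, as the distance in nts from the gene TSS in the direction of the gene. Black triangles are gene TSSs, green ticks the starts of the canonical transcripts, blue triangles uaTSSs and red triangles daTSSs. HLA-B and HLA-E carry both antisense calls, B2M a uaTSS, and the TAP1 tick lies 158 nts before its gene TSS.

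TAP1 and PSMB9, a catalytic subunit of the immunoproteasome that produces peptides for class I molecules, face away from each other across one promoter. The PSMB9 gene TSS (32821591, plus strand) was called 268 nts upstream of the TAP1 gene TSS, on the other strand. It lies 334 nts from the nearest annotated PSMB9 start, further than the upper quartile of 50 nts for all gene TSSs. The uaTSS of PSMB9 (32821506, minus strand) was 85 nts from the PSMB9 gene TSS, and 11.5% of all uaTSSs were that near or nearer. This uaTSS has the strand of TAP1 and lies 25 nts upstream of the canonical TAP1 start, 12 nts from the nearest annotated start of a coding TAP1 transcript and 183 nts upstream of the TAP1 gene TSS. Whether it initiates TAP1 transcripts or antisense RNA of PSMB9 cannot be told apart from the calls. No uaTSS was listed for TAP1 itself. The level of PSMB9 was 10.6 FPKM, below the 45.8 of TAP1.

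The stretch from the base before the canonical TAP1 start to 30 nts into the PSMB9 transcript is shown because it holds the uaTSS and the PSMB9 gene TSS and ends beside the canonical TAP1 start. Other annotated TAP1 transcripts also begin inside it. It is written on the strand of PSMB9, with the uaTSS at base 25 and the PSMB9 gene TSS at base 110. The capitals mark a GC box core and 2 overlapping ISRE matches.

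TAP1 to PSMB9 (chr6:32821482-32821620, plus strand): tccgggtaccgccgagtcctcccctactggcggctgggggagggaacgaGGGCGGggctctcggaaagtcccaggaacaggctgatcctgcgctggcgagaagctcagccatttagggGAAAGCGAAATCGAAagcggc

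The 2 ISRE matches start at bases 10 and 16 of the PSMB9 transcript, counted with its gene TSS as the first base.

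**Figure D3:**
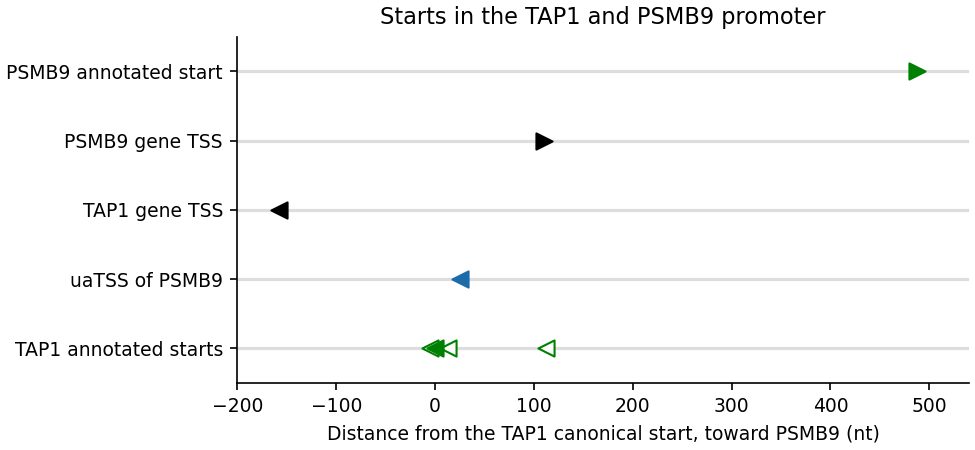
Starts between TAP1 and PSMB9, as the distance in nts from the canonical TAP1 start toward PSMB9. Triangles point in the direction of transcription, filled green for canonical and open green for other annotated starts of coding transcripts, black for gene TSSs and blue for the uaTSS. The uaTSS of PSMB9 falls 25 nts from the canonical TAP1 start, and the TAP1 gene TSS falls 158 nts on the other side.

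One further gene TSS (33267984, minus strand) was called inside the TAPBP locus, in the last of the 8 exons of that gene. Its nearest annotated start on that strand is that of the neighbouring gene RGL2, 1265 nts further downstream, and RGL2 was at 90.4 FPKM. It has a daTSS at 706 nts and was not counted for TAPBP.

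Promoter sequence was compared over the window from 250 nts before to 50 nts after each gene TSS, on both strands. Positions before the TSS are given as negative distances from it. Of the 7 promoters, 5 held TGACG, against 34.6% of all 10391. These were HLA-B, HLA-C, HLA-E, B2M and TAP2. CCAAT was found in 5 of 7, the 3 HLA genes, B2M and TAP1, against 35.3% of all. The TAP1 match lies within the first exon. HLA-B, HLA-C, HLA-E and B2M held both motifs.

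The spacing of some of these motifs was alike. From the first base of TGACG to the first base of an ATTGG downstream was 25 nts in HLA-B, 25 in HLA-C and 26 in B2M. HLA-E has CCAAT near that place in the other orientation, 23 nts after TGACG, and HLA-C has a further CCAAT 10 nts after it. From TGACG to the CCAAT nearest the gene TSS was 50 nts in HLA-B, 49 in HLA-C and 50 in HLA-E. The pair with 25 or 26 nts was a pattern chosen after these promoters were seen, so its presence in them is a description. Over all gene TSSs it occurred at 16 of 10391, or 0.154%, and the other 13 were at genes outside the class I pathway lists.

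The ISRE pattern GAAANNGAA was found in 3 of 7 promoters, against 5.90% of all. B2M had matches starting at -144 and -138, TAP2 at -50 and TAPBP at -15 and -9. In B2M and TAPBP the 2 matches overlap. None of the 3 HLA promoters held it. The shifted form GAANNGAAA, added after seeing the data, was found in HLA-B at -155 and HLA-C at -133, both on the other strand, and in TAP2 at -55, against 5.68% of all. The kappaB letters GGGATTCC occurred in HLA-B alone, at -176, against 1.22% of all.

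TATAA occurred in 3 of 7 windows (9.05% of all). It lay 30 nts before the TSS in HLA-E and 28 nts before it in B2M, and at -205 on the other strand in TAP2. The GC box core was present in 4 of 7, HLA-C, TAP1, TAP2 and TAPBP, against 72.4% of all. Neither the interferon gamma activated site (GAS) pattern TTCNNNGAA nor the E-box CACGTG was found in any of the 7, against 5.38% and 9.55% of all.

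**Figure D4:**
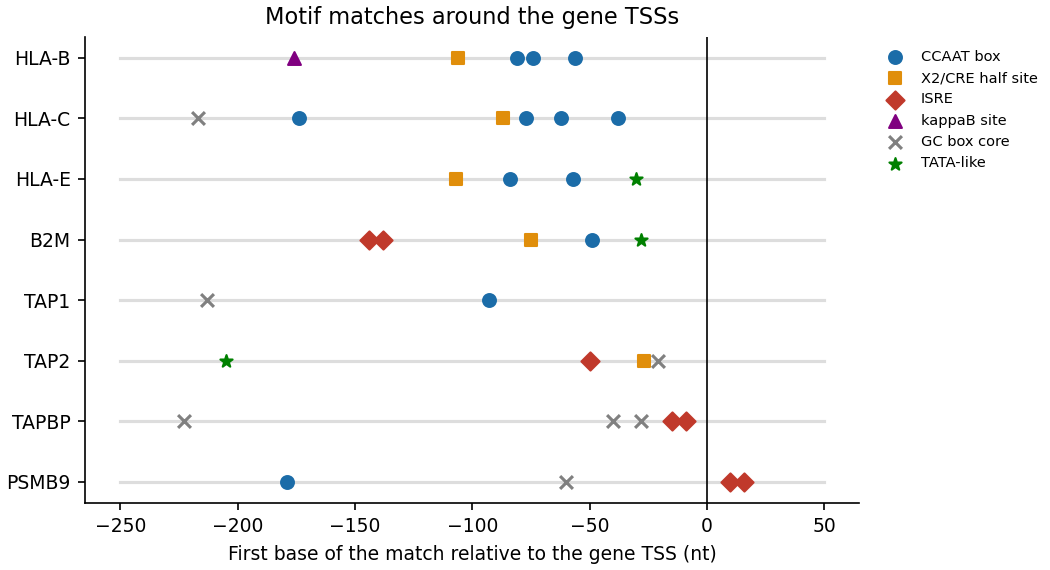
Positions of motif matches around the gene TSSs of the 7 genes and PSMB9, as the position of the first base of the match relative to the gene TSS. Bases before the TSS are negative, and later bases are counted with the TSS as the first. Each symbol is 1 match on either strand. The TGACG squares of HLA-B, HLA-C, HLA-E and B2M each have a CCAAT circle to their right, and the ISRE diamonds of TAPBP and PSMB9 lie next to the start.

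The base composition of the 7 windows was mostly below the typical promoter of this library. GC content was 62.0% in HLA-B, 61.0% in HLA-C, 50.3% in HLA-E, 58.3% in B2M, 59.3% in TAP2 and 64.0% in TAPBP, with a median of 66.0% over all gene TSSs. Only TAP1, with 70.7%, was above it, and its window lies largely in exon 1. HLA-E stood lowest, at the 6.15 percentile. The ratio of observed to expected CpG ranged from 0.417 in TAPBP to 0.872 in TAP2, and the median of all was 0.851. A pyrimidine followed by a purine at the start, the core of the initiator, was present in 5 of 7 against 66.1% of all gene TSSs, the exceptions being HLA-E and TAPBP.

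Over the stretch printed above, HLA-B and HLA-C were 74.6% identical, HLA-B and HLA-E 66.4% and HLA-C and HLA-E 63.1%. All other pairs of the 7 lay between 43.3% and 52.0%. The heavy chain promoters thus share sequence beyond the motifs, while the B2M promoter shares the TGACG and ATTGG arrangement at an identity of 44.02% with HLA-B. HLA-B and HLA-C differ in their antisense calls and 5.00-fold in FPKM, and are the most alike in reference sequence of all pairs. The alleles of T-47D cells were not read, and their effect on the reads mapped to each gene was not tested.

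The rest of the pathway was read from lists written from textbook knowledge, and the counts can be read beside the 46.9% of all genes at 1 FPKM or more and the 76.9% of annotated genes at that level with a gene TSS. Gene TSSs are counted here over the genes of a list at 1 FPKM or more, and medians are over the whole list. In the list for peptide transport and loading, 7 of 8 genes were at 1 FPKM or more and 6 of the 7 had a gene TSS, with a median of 80.5 FPKM. The lectin chaperone CALR was at 526, the chaperone HSPA5 at 199.98 and CANX at 129. Those levels were above those of TAPBP, TAP1 and TAP2, with the same limit, since the 3 are listed on main chromosomes.

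All 6 genes in the list for immunoproteasome and proteasome activators were at 1 FPKM or more and 4 had a gene TSS. The median was 51.2 FPKM, with the proteasome activator genes PSME1 at 88.2, PSME3 at 85.0 and PSME2 at 67.4. The interferon-inducible catalytic subunits were lower than the constitutive ones they replace. PSMB8 was at 34.9 FPKM, PSMB10 at 20.4 and PSMB9 at 10.6, while PSMB7 was at 312, PSMB6 at 156 and PSMB5 at 86.0. The groups of 3 do not overlap, but PSMB8 and PSMB9 are listed on a chromosome 6 haplotype and the other 4 on main chromosomes. All 3 constitutive genes were at 1 FPKM or more, 2 had a gene TSS, and their median was 156. The peptide trimming enzymes, 5 of 5 at 1 FPKM or more and 4 with a gene TSS, had a median of 14.7 FPKM, led by NPEPPS at 152, LAP3 at 41.4 and TPP2 at 14.7.

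Among 9 factors of class I transactivation, 8 were at 1 FPKM or more, the exception being NLRC5, and 6 had a gene TSS. The median was 18.6 FPKM. The RFX subunits RFX5 and RFXANK were at 45.2 and 36.3 FPKM and the NF-Y subunit NFYC at 28.2. Thus NLRC5 was listed below every DNA-binding partner in this list.

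Of 15 genes of interferon and NF-kB signalling, 14 were at 1 FPKM or more and all 14 had a gene TSS, with a median of 12.6 FPKM. RELA, a subunit of NF-kB, was at 73.9, and STAT2, which carries interferon signals to the nucleus, was at 29.5. Of 12 interferon-stimulated genes, 9 were at 1 FPKM or more and all 9 had a gene TSS, with a median of 20.0. UBE2L6 was at 113, IFI27 at 109 and IFI6 at 107.

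Of 12 genes of class II presentation, 4 were at 1 FPKM or more and 1 of the 4, HLA-DMA, had a gene TSS, and the median was 0.223 FPKM. HLA-DMA led at 28.8, followed by HLA-DRB1 at 4.89 and CD74 at 2.33. Of 11 class I-like genes and stress ligands, 8 were at 1 FPKM or more and 5 of the 8 had a gene TSS, with a median of 5.38. The highest were AZGP1 at 149, HFE at 48.5 and MICB at 31.9.

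**Figure D5:**
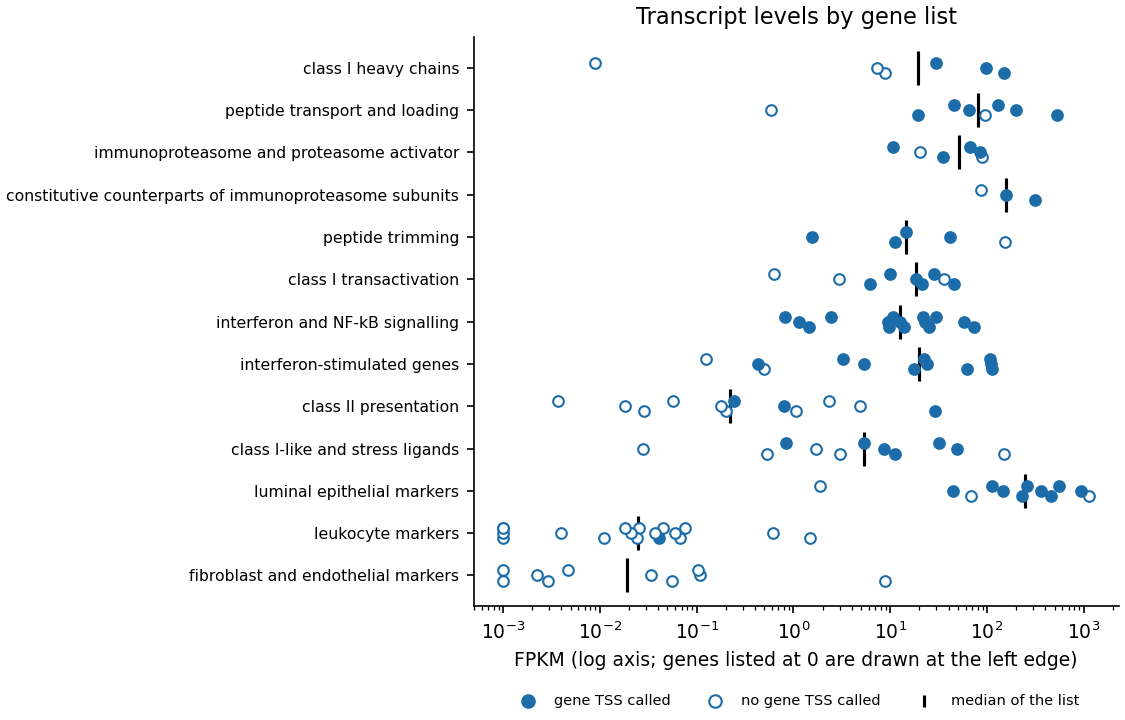
FPKM of each gene by list on a log axis. Filled points have a called gene TSS, open points have none, black bars are list medians, and genes listed at 0 are drawn at the left edge. Medians run from 0.0190 for fibroblast and endothelial markers to 244 for luminal markers, with class II presentation at 0.223 and peptide transport and loading at 80.5.

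The region between HLA-F and TAPBP (chr6:29690552-33282061) holds all 7 chromosome 6 genes. Of the 90 genes of this region at 1 FPKM or more, 62 had a gene TSS, 68.9% (58.3% to 78.2%), against 77.0% of the 11174 elsewhere. At 10 FPKM or more the shares were 85.7% (54 of 63) and 85.9%. HLA-F was among the 28 genes of the region without a call.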

How the data were processed

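Start-seq replicate 1 and RNA-seq (3 replicates) of T-47D cells were used, and the MNase-seq, FAIRE-seq and second Start-seq libraries were not analysed here. Per the labels and methods, reads were filtered by quality, trimmed with cutadapt 1.2.1 and, for Start-seq, aligned to hg19 with Bowtie 0.12.8. Starts were called by the authors from uniquely mapped 5′ ends at a threshold of 5 reads. The deposited calls have a score of 0 throughout. The deposited FPKM were made by the authors with TopHat2 2.0.4, Picard 1.118 and Cufflinks 2.2.1 on merged alignments. Depth is unknown for both.

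Gene TSSs were assigned to the nearest GENCODE transcript start (lifted to GRCh37) within 1000 nts on the same strand. uaTSSs were called by the authors up to 1000 nts upstream and daTSSs up to 2000 nts downstream. Computations used Python 3.11.15, pandas 2.3.3, scipy 1.17.1, pysam 0.24.0 and biopython 1.88 (global alignment, match 1, mismatch 1, gap 3 and 1), tested on simulated data. No test between groups was possible. Intervals are exact Clopper-Pearson at 95% and cover counting only.

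The genes and lists were chosen with earlier results of these data known. Named are the 9 genes, the 3 highest in FPKM and those at 0 of each list, and genes with a TSS in a widened locus. The other proteasome subunits PSMB8, PSMB9, PSMB10, and RGL2, GABBR1, HERPUD1 and HLA-F-AS1 were named after their values were seen or as neighbours. Some genes of the lists are not reported here.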

Additional observations from a re-analysis of the deposited data

How the results depend on the processing

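No paired analysis was possible because the RNA-seq replicates were merged into 1 column, the calls come from 1 Start-seq library and no result comes from a test. For the same reason no replicate could be left out. Of 35 alternatives, 25 were labelled as the same as the main value and 10 as moved, and 3 of the 35 were added after seeing the data. The limit differed by result. A median counted as moved on any change, and a count only on a larger fold change. A share of the region counted as moved outside the main interval. Percentiles and shares among isolated gene TSSs were labelled as moved without a limit. These counts are therefore not a measure of robustness. The median percentile of the 9 genes was 90.8 among all genes, 86.9 among genes with FPKM above 0 and 83.6 among genes at 1 FPKM or more, the last over 8 genes because NLRC5 drops out. Without NLRC5 the median FPKM was 55.4. Pseudocounts of 0.1 and 1 gave the same median. Loci not widened gave 6 genes with a gene TSS, since the TAP2 call lies outside its locus, and a widening of 5000 nts gave 7.

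Among gene TSSs with no other within 5000 nts, 58.5% had a uaTSS and 32.9% a daTSS. In the window from 500 nts before to 100 nts after, the kappaB letters were found in 2 of 7 promoters (2.56% of all). CCAAT was found there in 7 of 7 (51.1%) and the ISRE pattern in 4 of 7 (13.1%). On the gene strand alone the GC box core was found in 2 of 7 (51.5%). TGACG with ATTGG 25 or 26 nts later was found in 3 of 7. Calls in the region between HLA-F and TAPBP changed with the minimum level, to 85.7% at 10 FPKM, and to 55.6% where the gene TSS had to lie within 100 nts of an annotated start (65.0% elsewhere). The cause of these differences was not tested.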

Other observations

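The pair TGACG and ATTGG with a spacing of 25 or 26 nts, chosen after the class I promoters were seen, occurred at 13 gene TSSs besides those of HLA-B, HLA-C and B2M. Among these, named after their values were seen, were TRIM26, which lies in the same region of chromosome 6 and was at 35.7 FPKM, the cyclin gene CCNA2 at 50.1, the DNA polymerase delta subunit gene POLD2 at 164 and CDC23 of the anaphase-promoting complex at 28.6. The TGACG of TRIM26 began at -133, that of CCNA2 at -50, that of POLD2 at -94 and that of CDC23 at -105.

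Among genes of the region between HLA-F and TAPBP without a gene TSS, the highest levels were those of PFDN6 at 182 FPKM, ATF6B at 92.6 and RGL2 at 90.4, also named after their values were seen.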
